A study of Mus musculus with 28 samples.

Results

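The 50 genes described here encode ligands, receptors, Smad proteins, secreted antagonists, latency proteins and targets of the BMP, activin and TGF-beta pathways. They were taken by name from a list that uses no measured value, out of 55536 gene identifiers in the count files. All 50 had a count in some library, and 46 passed the filter on low counts that left 17493 genes for testing. Bmp8a, Gdf10, Gdf15 and Chrd did not pass it and never exceeded 0.534 CPM (CPM is the read count relative to the library total, with totals adjusted by TMM scaling). Tgfa is on the list by name only, since it encodes a ligand of the epidermal growth factor receptor.

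BMPs, activins and TGF-betas are secreted dimers that bring together type I and type II receptor kinases. The BMP branch signals through Smad1 and Smad5, the activin and TGF-beta branch through Smad2 and Smad3, and both branches share Smad4. In skin, BMP signals hold follicle stem cells at rest and favour differentiation of keratinocytes, and TGF-beta restrains keratinocyte division. Antagonists such as noggin, gremlin and follistatin bind the ligands outside the cell.

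The libraries are poly(A) RNA-seq of sorted cells of the interfollicular epidermis (IFE), the skin surface between hair follicles, from mice whose genotype is labelled wild type. Each mouse carried a tamoxifen-inducible Cre under 1 driver (Slc1a3CreER, AspmCreER, Dlx1CreER or K14CreER) together with the RosatdTomato reporter. Mice received tamoxifen daily for 5 days, from postnatal day 30 through 34. Harvest followed 2 weeks after, on day 49, in telogen, the resting phase of the hair cycle. Reporter-positive cells, called here by the driver (Slc1a3+, Aspm+, Dlx1+ and K14+), were sequenced beside the total IFE of the same line and site. Tail skin gave 2 libraries each of Slc1a3+, Aspm+ and Dlx1+ cells and of the total of each of these lines. Back skin gave 3 libraries each of Slc1a3+ and Aspm+ cells and their totals, and 2 each of K14+ cells and their total. The controls were therefore tamoxifen-treated and carried both alleles, and a labelled population is whatever cells the driver had marked, with their descendants over those weeks. The labels do not say whether libraries of a group came from separate mice, so p-values measure the spread between libraries, which may be technical.

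The 28 libraries held 7738262 to 37670589 counts each (median 20193387.5). The total of the Slc1a3 line from back skin, replicate 4, had the lowest total and 14436 genes with a count, against 18375 to 22500 in the other 27 libraries. The 6 basal IFE markers were present in every group, with sums between 41900 and 117000 CPM. The 8 markers of the follicle bulge and germ were present too, at 126 to 1680 CPM in sum. In bulk samples fewer cells of a type and less RNA per cell cannot be told apart.

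Tail skin differed from back skin in most of these genes. In the totals of the Slc1a3 and Aspm lines, 37 of the 46 tested genes passed an adjusted p of 0.05 (80.4%), 24 of them higher and 13 lower in the tail, against 46.2% of all genes tested, 22.5% higher and 23.7% lower. In Slc1a3+ cells 28 passed (15 higher, 13 lower; 60.9%), against 40.6% of all genes, 19% higher and 21.6% lower. In Aspm+ cells 23 passed (14 higher, 9 lower; 50%), against 27.2% of all genes, 12.7% higher and 14.5% lower, and the count was 13 without tail Aspm+ replicate 2. Tests are edgeR's quasi-likelihood test with Benjamini-Hochberg adjustment over all genes tested. The median log2 change of the 46 genes was 0.30 in the totals, 0.17 in Slc1a3+ cells and 0.33 in Aspm+ cells, beside -0.03, -0.09 and -0.05 over all genes. The roles differed: in the totals 8 of 10 targets and feedback genes were higher and 1 was lower, whereas 6 of 10 receptors were lower and 2 were higher.

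**Figure D1:**
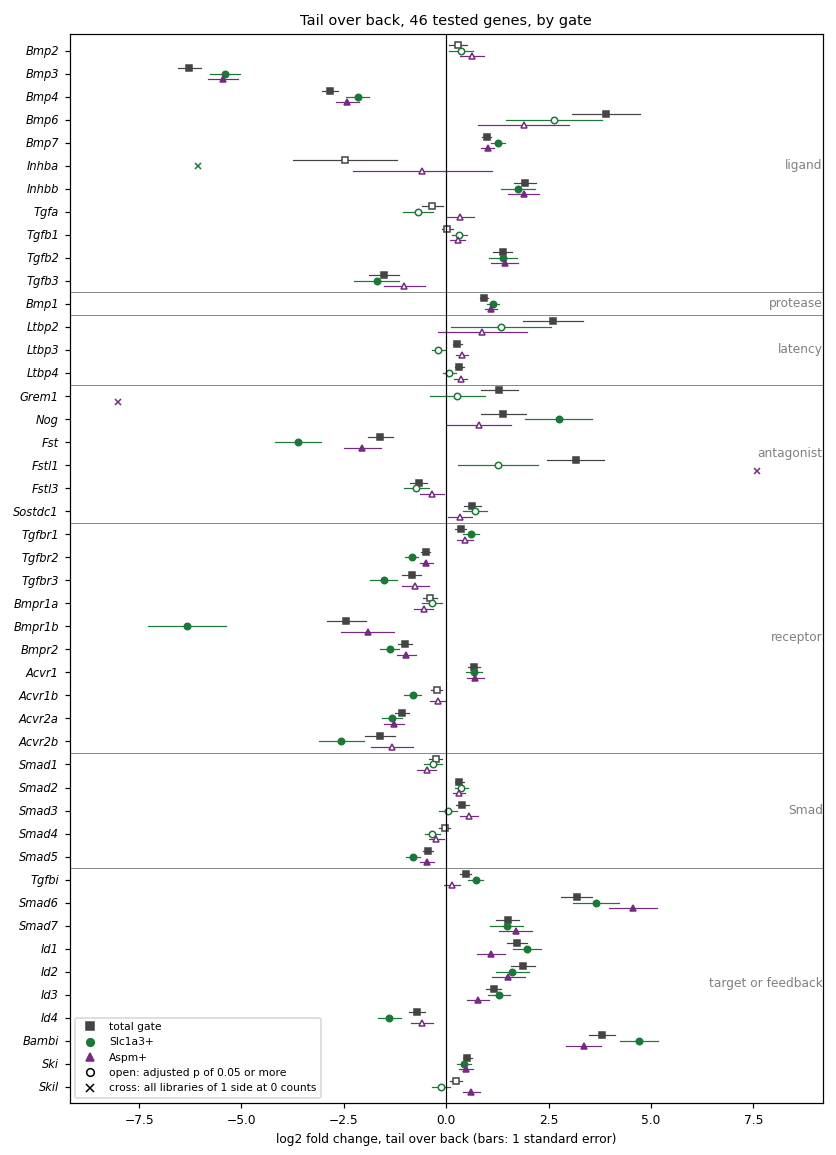
Log2 fold change of tail over back skin for each of the 46 tested genes, grouped by role, in the total gate, Slc1a3+ cells and Aspm+ cells. Bars are 1 standard error, open symbols have an adjusted p of 0.05 or more, and crosses mark genes at 0 counts in all libraries of 1 side, whose fitted value is no measure of size. Bmp3 lies farthest to the left among genes with counts on both sides in the total gate (-6.27), and Bambi and Bmp6 lie farthest to the right there (3.81 and 3.91).

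Agreement between gates was counted next. The gates are not independent, since totals and labelled cells come from the same lines and sites and from 1 fit. Libraries of the same line, site and number correlated in their deviations (r 0.18 to 0.689). A gene had to pass in the same direction in totals, Slc1a3+ cells and Aspm+ cells, which share no library. Of the 46 genes 20 did so (43.5%), against 20.9% of all genes, 9.4% higher and 11.5% lower. With the Aspm+ calls made without tail Aspm+ replicate 2, the count was 11: Bmp1, Bmp3, Bmp4, Bmp7, Inhbb, Tgfb2, Acvr2a, Smad6, Smad7, Fst and Bambi. The 12 that were higher in the tail in each gate were Bmp1, Bmp7, Inhbb, Tgfb2, Acvr1, Smad6, Smad7, Id1, Id2, Id3, Bambi and Ski. The 8 that were lower were Bmp3, Bmp4, Tgfbr2, Bmpr1b, Bmpr2, Acvr2a, Smad5 and Fst. Over all gates, the 12 tail libraries and 16 back libraries did not overlap for 9 of the 46 genes (19.6%), against 11.7% of all genes: Bmp1, Bmp6, Bmp7, Tgfb2, Smad6, Smad7 and Bambi lay above in the tail (5.93% of all genes did), and Bmp3 and Bmp4 below (5.77%).

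The BMP ligands changed places between the sites. Bmp4, a BMP made by epidermis and dermis, had 6.54, 9.68, 10.7 and 14.3 CPM in the 4 tail totals of the Slc1a3 and Aspm lines. In the 6 back totals of these lines it had 76.7, 77.3, 72.3, 68.6, 71 and 68 CPM. Every tail library of every gate lay below every back library, at 5.1 to 22 CPM (median 11.5) against 66.9 to 105 CPM (median 77). The log2 change was -2.84 (SE 0.203, adjusted p = 7.47e-11) in totals, -2.16 in Slc1a3+ cells and -2.42 in Aspm+ cells.

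Bmp3, a divergent member of the family known to oppose other BMPs, differed most in totals among the genes counted on both sides. It had 1.1, 0.944, 1.02 and 1.48 CPM in the tail totals. The back totals held 85, 58.9, 89.4, 73.4, 115 and 102 CPM, with no overlap between the sites. The log2 change was -6.27 (SE 0.280, adjusted p = 1.98e-14) in totals, -5.40 in Slc1a3+ cells and -5.44 in Aspm+ cells.

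Bmp7, an epithelial BMP, was higher in tail skin. The tail totals held 96.5, 92.4, 113 and 89.5 CPM, against 46, 46, 38.1, 61.5, 55.4 and 49.7 CPM in the back totals. All 12 tail libraries, at 68.4 CPM or more, lay above all 16 back libraries, at 61.5 CPM or less. The log2 change was 0.99 (SE 0.117, adjusted p = 2.85e-07) in totals, 1.27 in Slc1a3+ cells and 1.01 in Aspm+ cells.

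Bmp2, the nearest relative of Bmp4, had a log2 change of 0.29 in totals (adjusted p = 0.273), and its libraries overlapped, at 15 to 37.7 CPM in the tail and 15.2 to 31.1 CPM on the back. Bmp6, a relative of Bmp7, was low at both sites and did not overlap, at 0.466 to 3.66 CPM in the tail and 0 to 0.436 CPM on the back. It was higher in the tail totals (log2 change 3.91, SE 0.834, adjusted p = 5.41e-04) and missed the threshold in Slc1a3+ and Aspm+ cells (adjusted p = 0.0784 and 0.226).

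Levels of different ligands were compared per kilobase of exon, as RPKM. In the summed RPKM of Bmp2, Bmp4, Bmp6 and Bmp7, Bmp4 made up 6.22 to 24.9% in the tail libraries (median 13%) and 57.1 to 76% in the back libraries (median 66.8%). Bmp7 made up 50.4 to 76.1% in the tail (median 61.1%) and 13.8 to 28.6% on the back (median 21.5%). The sum itself was lower in the tail, at 28.8 to 42.4 RPKM against 44.5 to 61.3 RPKM on the back. Bmp7 was thus the leading BMP transcript of each tail library and Bmp4 that of each back library. These shares describe RNA of sorted epidermal cells and leave out BMPs made in the dermis.

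**Figure D2:**
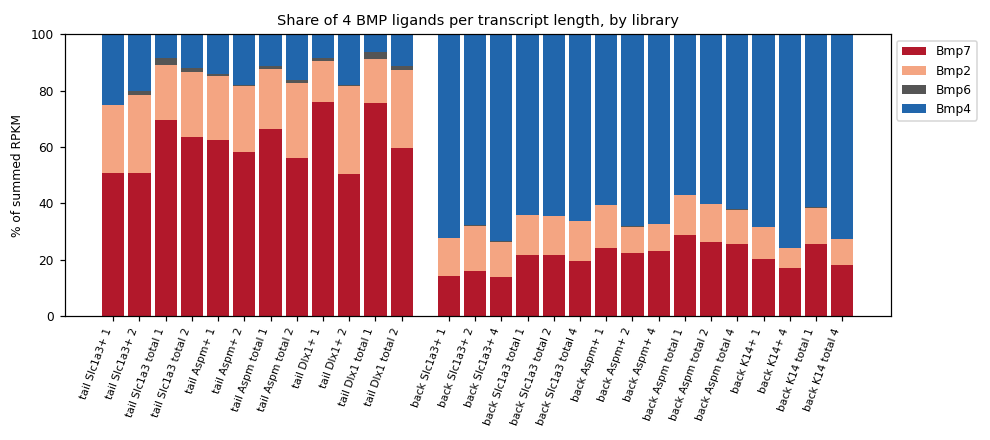
Share of Bmp7, Bmp2, Bmp6 and Bmp4 in their summed RPKM in each library, with the 12 tail libraries on the left and the 16 back libraries on the right (the number after each group is the replicate). Bmp4 fills 6.22 to 24.9% of each tail bar and 57.1 to 76% of each back bar.

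Of the activin and TGF-beta ligands, Inhbb, the activin beta B subunit, was higher in tail skin at each gate. It had 30.7, 24.6, 25.1 and 16.9 CPM in the tail totals and 3.43, 7.39, 3.06, 7.13, 10.1 and 8.07 CPM in the back totals (log2 change 1.93, SE 0.265, adjusted p = 2.45e-06). The totals did not overlap. Inhba, the beta A subunit, did not exceed 0.395 CPM in the tail or 2.43 CPM on the back, and its changes missed the threshold.

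Tgfb2 was also higher in each gate and did not overlap over all libraries, at 19.2 to 34.1 CPM (median 26.9) in the tail and 2.68 to 15.4 CPM (median 9.98) on the back. Its log2 change was 1.38 (SE 0.236, adjusted p = 4.41e-05) in totals. Tgfb3 went the other way, at 0.407 to 5.03 CPM (median 1.88) in the tail and 2.42 to 10.7 CPM (median 7.11) on the back. It was lower in tail totals (-1.52, adjusted p = 0.00138) and in Slc1a3+ cells (-1.70, adjusted p = 0.0165, not passed without tail or back Slc1a3+ replicate 1), and 420 of its 3383 exon bases lie under other annotated genes. Tgfb1, the most abundant TGF-beta per kilobase of exon, had 31.4 to 50.3 CPM in the tail and 21 to 45.8 CPM on the back, with overlap, and its change in totals was 0.03 (SE 0.129, adjusted p = 0.878).

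**Figure D3:**
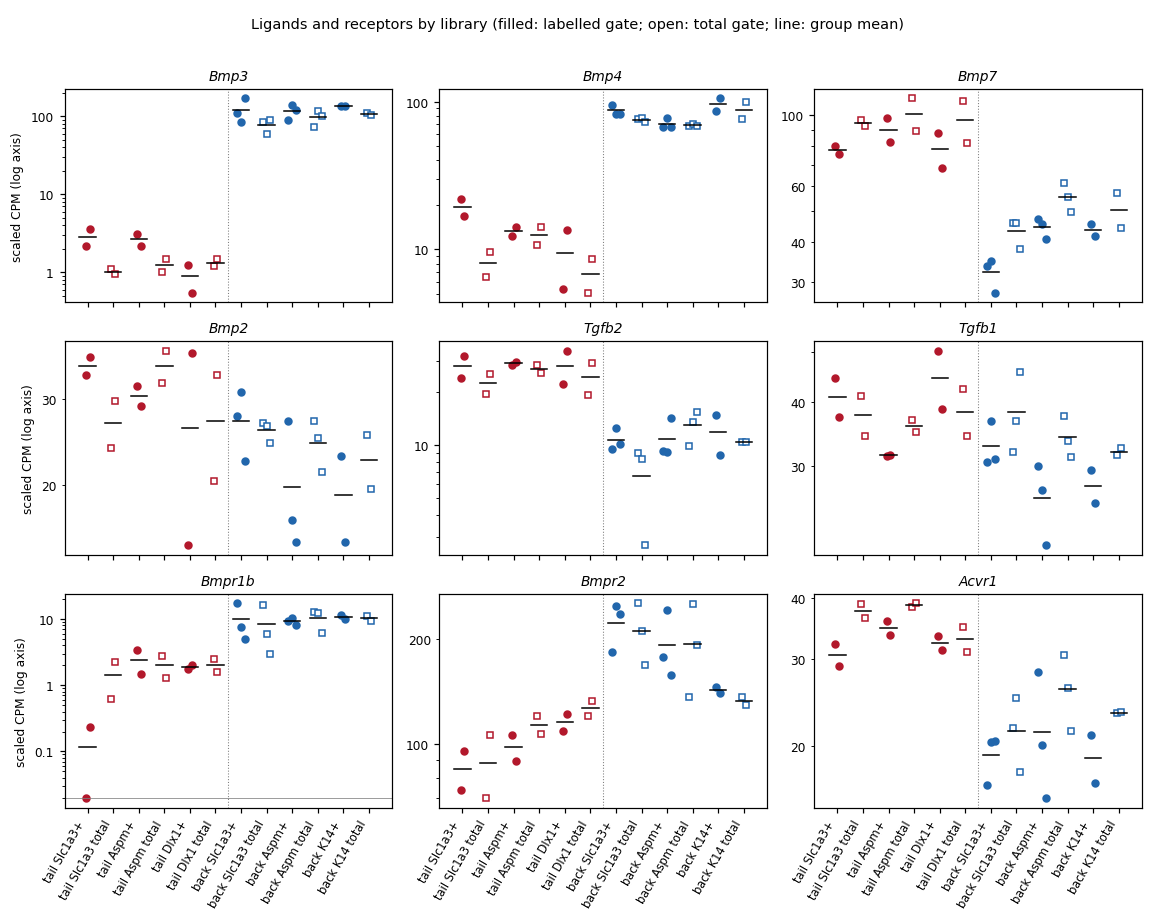
Scaled CPM on a log axis of 6 ligands (Bmp3, Bmp4, Bmp7, Bmp2, Tgfb2 and Tgfb1) and 3 receptors (Bmpr1b, Bmpr2 and Acvr1) in all 28 libraries, tail groups in red on the left and back groups in blue on the right. Filled points are labelled cells, open points totals and lines group means, and a grey line marks 0 counts, drawn at 0.02. Bmp3, Bmp4, Bmp7 and Tgfb2 do not overlap between sites, while Bmp2 and Tgfb1 do.

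Bmp1 and the 3 latent TGF-beta binding proteins on the list were higher in the tail totals. Bmp1, which in spite of its name is a protease that cuts procollagens and frees ligands from inhibitors, had 178 to 213 CPM (median 199) in the tail and 71.3 to 123 CPM (median 96.9) on the back, with no overlap. Its log2 change was 0.93 (SE 0.101, adjusted p = 7.88e-08) in totals. Ltbp2, a matrix protein of the latent TGF-beta binding family, was higher in tail totals (2.61, adjusted p = 0.00513) at 0.349 to 14.3 CPM in the tail and 0 to 2.39 CPM on the back. Ltbp3 and Ltbp4, which tether latent TGF-beta, passed with small changes of 0.27 and 0.32 in totals only. These 2 calls are weak: Ltbp3 lost its call when any 1 of 8 libraries was left out, and Ltbp4 without back Aspm total replicate 1, tail Slc1a3 total replicate 2 or tail Aspm total replicate 2, and with a block by line and number.

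Receptors went largely the other way. Bmpr1b, a type I BMP receptor, had 0.62, 2.2, 2.72 and 1.29 CPM in the tail totals and 16.2, 5.94, 2.94, 12.5, 12.1 and 6.06 CPM in the back totals, without overlap (log2 change -2.44, SE 0.479, adjusted p = 2.13e-04). In Slc1a3+ cells the tail libraries held 0 and 4 counts (0 and 0.237 CPM), against 17.1, 7.46 and 5.03 CPM on the back. Bmpr2, the type II BMP receptor, was lower in each gate, at 70.3 to 133 CPM (median 107) in the tail and 129 to 252 CPM (median 180) on the back (totals -1.01, SE 0.164, adjusted p = 2.47e-05). In Aspm+ cells the call of Bmpr2 was lost without tail replicate 2, and that of Bmpr1b (-1.92) without either tail library or back replicate 2. The activin type II receptors Acvr2a (28.9 against 54.9 CPM in the medians) and Acvr2b (2.46 against 7.27 CPM) had log2 changes of -1.09 and -1.62 in tail totals (adjusted p = 1.43e-05 and 8.44e-04).

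The TGF-beta receptors divided. Tgfbr2, the type II receptor, and Tgfbr3, a co-receptor, were lower in tail totals (-0.50 and -0.84, adjusted p = 7.37e-04 and 0.00418), with medians of 87.9 and 48.1 CPM in the tail and 133 and 80.1 CPM on the back. The Tgfbr2 call in Aspm+ cells (-0.49) was lost when any 1 of 4 libraries was left out. Tgfbr1, the type I receptor, was higher in totals by 0.35 (adjusted p = 0.0398), a call lost when any 1 of 7 libraries was left out, with medians of 57 CPM in the tail and 40.7 CPM on the back. Acvr1, a type I receptor for BMPs, was higher in each gate, at 29.1 to 39 CPM in the tail and 15.7 to 30.6 CPM on the back (totals 0.68, SE 0.144, adjusted p = 4.53e-04). In Slc1a3+ cells that call was lost without tail replicate 1, and in Aspm+ cells without either tail library or back replicate 4. Bmpr1a, the most abundant BMP type I receptor per kilobase of exon, had medians of 138 CPM in the tail and 180 CPM on the back and missed the threshold (-0.40, adjusted p = 0.0538). Acvr1b, an activin type I receptor, had -0.23 (adjusted p = 0.169) in totals and passed in Slc1a3+ cells alone (-0.82, adjusted p = 0.00184). In these cells it had 84.6 and 94.1 CPM in the tail and 164, 176 and 135 CPM on the back, without overlap. That call held under all 11 alternatives. Over all libraries its medians were 122 CPM in the tail and 135 CPM on the back.

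Of the 5 Smads on the list that carry the signal, 2 were higher and 1 lower in tail totals. Smad5 was lower in each gate (-0.44 in totals, SE 0.119, adjusted p = 0.00417), with medians of 139 CPM in the tail and 182 CPM on the back, and in Aspm+ cells its call (-0.46, adjusted p = 0.0450) was lost when any 1 of 4 libraries was left out. Smad2 and Smad3 were higher in totals by 0.32 and 0.39 (adjusted p = 0.0165 and 0.0477), at medians of 115 and 43 CPM in the tail and 89.6 and 32.7 CPM on the back. Smad2 lost its call without tail Slc1a3 total replicate 2 or tail Aspm total replicate 1, and Smad3 when any 1 of 5 libraries was left out, with a block by line and number or with the compared groups alone. Smad1 and Smad4 had changes of -0.26 and -0.04 (adjusted p = 0.186 and 0.845).

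Genes listed as targets or feedback genes were mostly higher in the tail, 8 of 10 in each gate. The 10 are not a readout of BMP signalling alone, since they include Tgfbi, a target of TGF-beta, and Ski and Skil. The 8 also differed by gate: Tgfbi was among them in totals and Slc1a3+ cells, and Skil in Aspm+ cells. Id1, Id2 and Id3, inhibitors of basic helix-loop-helix factors and direct BMP targets, were higher in each gate, with log2 changes of 1.74, 1.88 and 1.16 in totals (adjusted p = 3.78e-06, 1.30e-05 and 2.88e-05). Id1 had 90.1, 76.9, 81.9 and 101 CPM in the tail totals and 15, 11.8, 25.2, 46, 27.3 and 47.1 CPM in the back totals. Id2 had 34.8, 43.9, 46.9 and 52.6 CPM in the tail totals and 11.4, 8.72, 1.28, 20.6, 11.7 and 24.7 CPM in the back totals. The totals of the sites overlapped for neither gene, and the lowest Id2 value of all, 1.28 CPM, came from the back total library with few genes. Id3 had medians of 92.4 CPM in the tail and 47 CPM on the back. Id4, the fourth member, was lower in tail totals (-0.72, SE 0.191, adjusted p = 0.00347) and Slc1a3+ cells (-1.39), at medians of 17.6 and 28.2 CPM. In Aspm+ cells the calls of Id1 and Id3 were lost without tail replicate 2 or back replicate 1 or 2, and that of Id2 without tail replicate 2.

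Of the feedback inhibitors, Smad6 and Bambi changed more in totals than the Id genes, and Smad7 changed less than Id1 and Id2. Smad6, which blocks BMP receptors from inside the cell, had 11.4, 10.6, 7.3 and 13 CPM in the tail totals and 1.61, 0.898, 0, 1.79, 0.828 and 1.48 CPM in the back totals (log2 change 3.19, SE 0.377, adjusted p = 2.92e-07). Smad7, which blocks both branches, was higher by 1.50 (SE 0.284, adjusted p = 1.47e-04), at 17.3 to 30.8 CPM in the tail and 2.55 to 12.8 CPM on the back. Bambi, a decoy receptor without a kinase and itself a BMP target, had 30.2, 27.3, 29.7 and 34.4 CPM in the tail totals and 1.51, 1.88, 1.66, 2.39, 2.36 and 3.58 CPM in the back totals (3.81, SE 0.314, adjusted p = 8.29e-10). None of these 3 genes overlapped between the 12 tail and 16 back libraries, and all 3 passed at each gate under each of the alternatives run. The largest Bambi values, 45.4 and 46 CPM, were in tail Slc1a3+ cells.

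**Figure D4:**
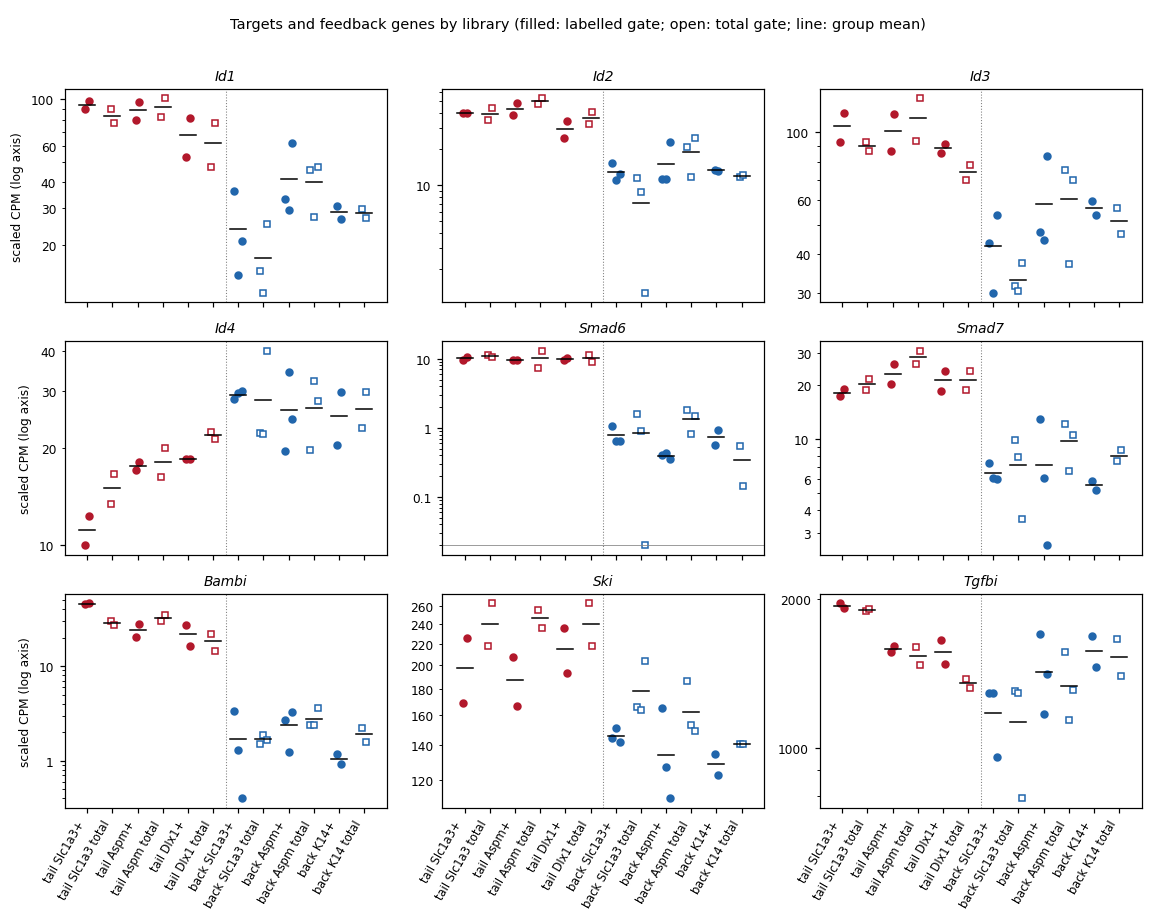
Scaled CPM on a log axis of 9 targets and feedback genes in all 28 libraries, tail groups in red on the left and back groups in blue on the right (filled, labelled cells; open, totals; line, group mean; grey line, 0 counts drawn at 0.02). Smad6, Smad7 and Bambi do not overlap between sites, Id1, Id2 and Id3 lie higher in the tail, and Id4 lies lower.

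Other genes of this role changed less. Ski, a repressor that binds Smads, was higher in totals (0.52, SE 0.119, adjusted p = 0.00109), with medians of 222 CPM in the tail and 147 CPM on the back. Its calls in Slc1a3+ and Aspm+ cells (0.44 and 0.48) were lost when any 1 of 4 libraries was left out each. Its relative Skil had 0.25 in totals (adjusted p = 0.176) and 0.61 in Aspm+ cells (adjusted p = 0.0314, lost when any 1 of 4 libraries was left out), with medians of 36.8 and 22.5 CPM. Tgfbi, a matrix protein induced by TGF-beta and the most abundant of the 50 genes per kilobase of exon, was higher in totals (0.48, adjusted p = 0.00559) and Slc1a3+ cells (0.72, adjusted p = 0.00387), at medians of 1600 CPM in the tail and 1300 CPM on the back, with overlap.

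The 250 bases before the start of Id2, Id3, Smad6 and Bmp4 are printed because the first 3 were higher in tail skin and Bmp4 was lower. They are RefSeq promoters on build GRCm38.p6, and the start is that of RefSeq: the Id2 and Id3 windows lie inside the genes as annotated in GENCODE M21, whose starts are earlier. Sequences are read 5′ to 3′ on the strand of the gene. Id2 lies at chr12:25096093-25096342 on the minus strand, Id3 at chr4:136143572-136143821 on the plus strand, Smad6 at chr9:64022060-64022309 on the minus strand and Bmp4 at chr14:46390670-46390919 on the minus strand. Capitals mark 2 motifs known to bind Smads, GGCGCC, which reads the same on both strands, and CAGAC, which reads GTCTG on the other strand.
Id2: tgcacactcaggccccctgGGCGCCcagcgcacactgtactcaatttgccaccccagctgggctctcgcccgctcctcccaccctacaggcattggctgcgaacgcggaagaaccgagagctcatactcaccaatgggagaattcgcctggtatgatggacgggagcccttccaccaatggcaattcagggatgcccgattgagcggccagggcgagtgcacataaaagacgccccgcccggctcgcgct
Id3: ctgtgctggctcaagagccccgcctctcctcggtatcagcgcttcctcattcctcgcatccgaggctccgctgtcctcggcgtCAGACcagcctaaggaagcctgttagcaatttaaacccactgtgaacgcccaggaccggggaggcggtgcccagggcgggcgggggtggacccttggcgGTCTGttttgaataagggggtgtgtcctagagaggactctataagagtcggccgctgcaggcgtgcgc
Smad6: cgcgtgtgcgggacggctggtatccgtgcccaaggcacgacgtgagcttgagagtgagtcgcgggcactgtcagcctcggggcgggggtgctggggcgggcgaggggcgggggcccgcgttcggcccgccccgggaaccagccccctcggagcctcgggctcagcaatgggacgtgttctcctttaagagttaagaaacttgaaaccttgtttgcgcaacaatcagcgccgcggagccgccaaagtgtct
Bmp4: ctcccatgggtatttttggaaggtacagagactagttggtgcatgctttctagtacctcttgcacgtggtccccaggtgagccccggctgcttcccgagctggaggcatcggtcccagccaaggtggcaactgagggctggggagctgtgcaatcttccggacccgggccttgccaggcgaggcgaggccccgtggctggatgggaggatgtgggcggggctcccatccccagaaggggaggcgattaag
Id2 held 1 GGCGCC, Id3 held 2 CAGAC in either orientation, and Smad6 and Bmp4 held 0 of either motif in this window, and no matches overlapped. Of the 35 genes of the list with a promoter in the table, 11 held GGCGCC (31.4%) and 18 held CAGAC (51.4%), beside 9.59% and 42.2% of all 32851 promoters of the same length. These shares are not like for like. A listed gene counted if any of its promoters held the motif, whereas the background counts each promoter, 32851 from 27025 genes. GC content was not matched, and GGCGCC consists of G and C alone. A match is a stretch of letters, and binding was not measured.

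Secreted antagonists were mixed. Fst, follistatin, which binds activins, was lower in each gate: it had 15.3, 15, 14 and 12.2 CPM in the tail totals and 47.2, 29.8, 19.2, 65.2, 38.2 and 67.8 CPM in the back totals (log2 change -1.61, SE 0.305, adjusted p = 1.44e-04). The change was -3.62 in Slc1a3+ cells and -2.05 in Aspm+ cells, and it passed under each of the alternatives run. Sostdc1, an inhibitor of BMP and Wnt signals and the most abundant antagonist per kilobase of exon, was higher in tail totals (0.64, SE 0.203, adjusted p = 0.0131), at 68.7 to 385 CPM in the tail and 27.1 to 255 CPM on the back. That call was lost without tail Slc1a3 or tail Aspm total replicate 1. Nog, noggin, had 1.43 to 4.48 CPM in the tail and 0 to 2.54 CPM on the back, higher in totals by 1.40 (adjusted p = 0.0370, lost when any 1 of 5 libraries was left out) and in Slc1a3+ cells by 2.75 (adjusted p = 0.00938, lost without tail replicate 2).

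Grem1, gremlin, took opposite directions in totals and Aspm+ cells. It had 7.09, 7.24, 6.75 and 5.46 CPM in the tail totals and 3.19, 2.39, 4.72, 1.23, 3.82 and 1.44 CPM in the back totals (log2 change 1.30, SE 0.444, adjusted p = 0.0199, lost without tail Aspm total replicate 1). In Aspm+ cells both tail libraries had 0 counts, against 1.73, 2.08 and 0.509 CPM on the back, which makes the tail at least 8.64-fold lower when a library at 0 is set to 3 counts (adjusted p = 4.28e-04). Fstl1, a follistatin-like glycoprotein, was higher in tail totals by 3.16 (SE 0.694, adjusted p = 8.01e-04), at 0.249 to 5.28 CPM in the tail and 0 to 0.971 CPM on the back. In Aspm+ cells it had 0 counts in all 3 back libraries, and 1.9 and 0.249 CPM in tail replicates 1 and 2. The mean of these unlike tail values was at least 8.26-fold higher, with the same floor (adjusted p = 8.39e-04, lost without tail Aspm+ replicate 1). Fstl3, an activin inhibitor, was lower in tail totals (-0.67, adjusted p = 0.0127) at medians of 10.3 and 15.3 CPM. That call was lost when any 1 of 3 libraries was left out, and 47.3% of the exon bases of Fstl3 lie under Prss57, so reads of the 2 genes cannot be told apart without strand.

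A further 67 pathway genes were listed beside the 50, and 43 of them were tested. In totals 13 were higher in the tail (among them Lefty1, Neo1, Smad9, Smurf1, Tgfbrap1, Bmper, Wfikkn1, Dcn, Tll1, Pmepa1, Msx1 and Msx2) and 9 were lower (Acvrl1, Rgmb, Cd109, Twsg1, Wfikkn2, Itgav, Itgb6, Thbs1 and Gata3), with a median change of 0.06. Those 22 are 51.2% of the 43, against 46.2% of all genes. Slc1a3+ cells gave 9 higher and 10 lower (44.2%, against 40.6% of all genes), with Ltbp1 higher and Nbl1 and Lrrc32 lower beside genes also called in totals. Aspm+ cells gave 9 higher and 6 lower (34.9%, against 27.2%), with Inha higher beside such genes. Msx2, a homeobox target of BMPs, averaged 28.4 CPM in the tail totals and 7.90 CPM in the back totals (log2 change 1.89, SE 0.193), and Pmepa1, a feedback gene of TGF-beta, 39.2 and 11.6 CPM (1.75, SE 0.185). Smad9, the third BMP Smad, averaged 4.21 CPM in the tail totals and 0.326 CPM in the back totals (3.53, SE 0.628). Gata3 averaged 91.3 and 591 CPM (-2.70, SE 0.106), and Rgmb, a BMP co-receptor, 58.7 and 228 CPM (-1.95, SE 0.160).

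Markers of the IFE and of other cells also differed between the sites in these totals. The 6 basal IFE markers summed to 74900 to 95000 CPM in the tail and 42800 to 68000 CPM on the back, and 3 were higher and 2 lower. Of the 6 differentiated IFE markers 2 were higher and 1 was lower in the tail, and their sums overlapped. The 6 melanocyte markers summed to 16.4 to 22.6 CPM in the tail and 3.69 to 7.44 CPM on the back, where Mlana, Tyr and Sox10 were at 0 in the Aspm line. The 8 bulge and germ markers summed to 801 to 931 CPM in the tail and 331 to 704 CPM on the back, and 6 of them were higher. The 8 upper follicle and sebaceous markers summed to 973 to 1210 CPM in the tail and 448 to 749 CPM on the back, and 7 were higher and 1 lower. The 6 epidermal T cell markers summed to 0 to 0.826 CPM in the tail and 1.1 to 3.7 CPM on the back. Of the 6 Langerhans markers 4 were lower and 1 was higher in the tail, though their sums overlapped. Of the markers tested, 1 of 5 for fibroblasts was higher and 1 of 6 for endothelium and mural cells was lower. The 5 Merkel markers tested gave 1 higher and 1 lower. In Slc1a3+ cells the bulge and germ sums overlapped, at 166 to 222 CPM in the tail and 126 to 400 CPM on the back. The upper follicle and sebaceous sums there were 914 to 1050 CPM in the tail and 488 to 674 CPM on the back (6 of 8 higher, 1 lower), and the melanocyte sums 25.7 to 29.4 CPM and 5.84 to 16 CPM (3 of 6 higher). The part of other cell types, or of basal and differentiated cells, in the results for the sites was not tested.

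Labelled cells were then set against their totals. Few of the genes passed, and those that did were lower in the labelled cells: 3 of 46 in tail Slc1a3+ cells, 1 each in tail Aspm+ and back Slc1a3+ cells, and 0 in tail Dlx1+, back Aspm+ and back K14+ cells. The share of all genes that passed was 0.514% in tail Slc1a3+ cells (0.497% lower), 0.00572% in tail Aspm+ cells, 0.109% in back Slc1a3+ cells, 0% in tail Dlx1+ and back Aspm+ cells and 0.00572% in back K14+ cells. At an unadjusted p under 0.05 the counts by edgeR were 5 of 46 in tail Dlx1+, 7 in back Aspm+ and 5 in back K14+ cells, against 2.55%, 2.18% and 2.15% of all genes. DESeq2's test called 1, 1 and 2 there. The median log2 change of the 46 genes was between -0.21 and -0.04 in the 6 comparisons, beside -0.01 to 0.03 over all genes. Libraries of a line, site and number deviated together (r 0.18 to 0.689, lowest in the 3 back Slc1a3 pairs), so values with each labelled library paired to its total are given where they change a call. Same-numbered libraries of other lines reached 0.343 and of the other site 0.379. The back Slc1a3, back K14 (0.362) and tail Aspm (0.321) pairs therefore do not stand apart, and their pairing is uncertain. In groups of 2 libraries both pairs give the same r.

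Fst, the activin antagonist, was lower in tail Slc1a3+ cells. In the tail it had 1.05 and 0.653 CPM in Slc1a3+ cells and 15.3 and 15 CPM in their total. The log2 change was -4.14 (SE 0.577, adjusted p = 3.32e-04) and passed under all 10 alternatives. The groups were far apart. In the other tail lines it had 8.5 and 8.21 CPM in Aspm+ cells against 14 and 12.2 CPM in their total, and 12.4 and 12.4 CPM in Dlx1+ cells against 34.7 and 31.8 CPM in their total.

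On the back, Fst had 19.9, 6.48 and 5.19 CPM in Slc1a3+ cells and 47.2, 29.8 and 19.2 CPM in their total. The groups overlapped, and the change of -1.61 missed the threshold (adjusted p = 0.172) but passed with pairing (-1.75, adjusted p = 7.83e-05). Pairing is uncertain for these back Slc1a3 libraries. K14+ cells had 2.26 and 3.49 CPM against 13.5 and 16.1 CPM in their total (-2.39, adjusted p = 0.242, and -2.40 with adjusted p = 0.000304 with pairing). Their pairing, too, is uncertain. In tail Dlx1+ cells the change missed the threshold (adjusted p = 0.917) and passed with pairing (-1.42, adjusted p = 0.00369) and without the low-count filter.

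Sostdc1 followed the same order. In the tail it had 79.6 and 68.7 CPM in Slc1a3+ cells and 314 and 237 CPM in their total (log2 change -1.89, SE 0.330, adjusted p = 0.00352). On the back it had 78.8, 27.8 and 30.3 CPM in Slc1a3+ cells and 161, 134 and 95.6 CPM in their total (-1.51, SE 0.269, adjusted p = 0.0142). In neither case did the groups overlap. The tail call was lost without either Slc1a3+ library or total replicate 1, and the back call without Slc1a3+ replicate 2 or 4 or total replicate 1 or 2. In back K14+ cells it had 28.1 and 27.1 CPM against 98 and 97.3 CPM in their total (-1.82, adjusted p = 0.0888, and adjusted p = 0.000431 with pairing). The pairing of the K14 libraries is uncertain.

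Inhbb was lower in tail Slc1a3+ cells, with 5.18 and 7.06 CPM against 30.7 and 24.6 CPM in their total (log2 change -2.17, SE 0.431, adjusted p = 0.0122). That call, too, was lost without either Slc1a3+ library or total replicate 1. In the other groups the 2 sides lay closer, at 17.3 and 15.5 CPM in tail Aspm+ cells against 25.1 and 16.9 CPM in their total. With pairing 5 more genes passed in tail Slc1a3+ cells: Bmp3 (1.53) and Bmp4 (1.24) were higher, and Bmpr1b (-3.58), Ltbp2 (-3.65) and Ltbp3 (-0.67) were lower. Bmp4 had 22 and 16.9 CPM in Slc1a3+ cells and 6.54 and 9.68 CPM in their total, and Bmp3 had 2.15 and 3.56 CPM against 1.1 and 0.944 CPM.

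Grem1 was lower in tail Aspm+ cells, with 0 counts in both libraries against 6.75 and 5.46 CPM in their total, at least 36.7-fold lower (adjusted p = 0.00942). Leaving out either Aspm+ library removed the call. Tail Dlx1+ cells had 0.772 and 1.86 CPM against 14.4 and 21.7 CPM in their total (-3.75, adjusted p = 0.119), and passed with pairing (-3.85, adjusted p = 0.0155), as did Ltbp2 (-3.98). Tail Slc1a3+ cells had 1.28 and 2.61 CPM against 7.09 and 7.24 CPM in their total (-1.88, adjusted p = 0.583).

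**Figure D5:**
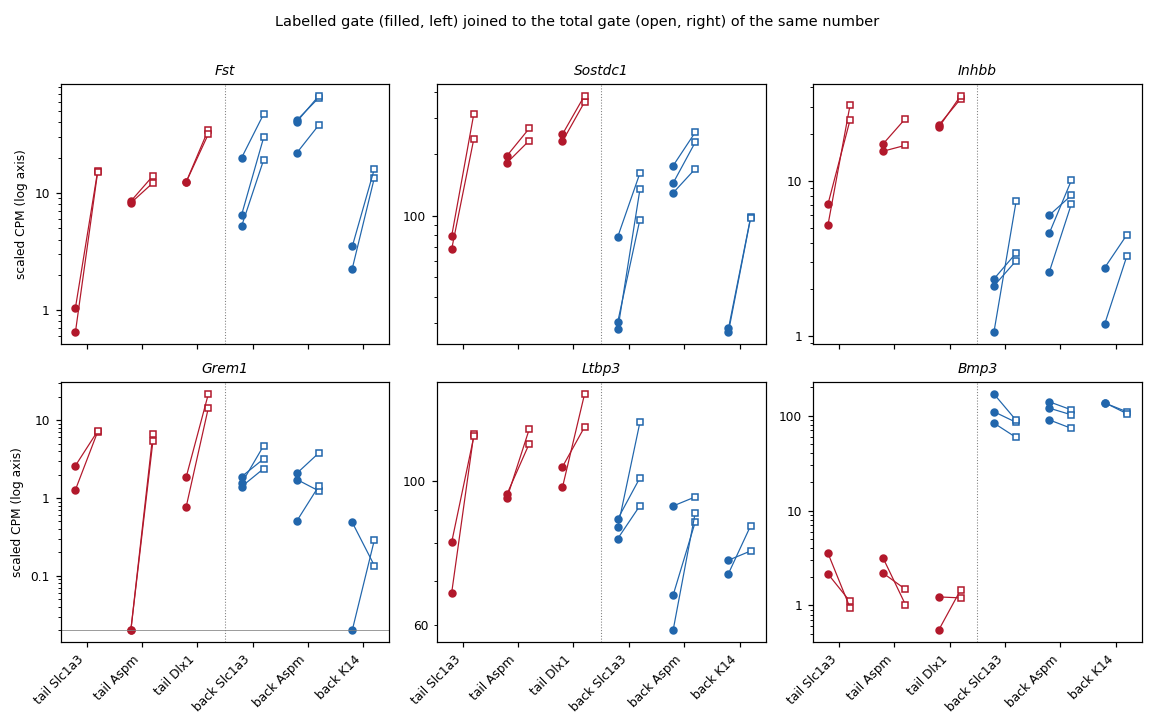
Scaled CPM on a log axis of Fst, Sostdc1, Inhbb, Grem1, Ltbp3 and Bmp3, with each labelled library (filled, left) joined to the total of the same line, site and number (open, right); tail groups in red, back groups in blue, and 0 counts drawn at 0.02 on a grey line. Fst, Sostdc1, Inhbb and Ltbp3 fall below their total in all 14 pairs, and Bmp3 lies above it in 13.

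Direction alone was counted over the 14 pairs of a labelled library and its total, a count chosen after the values were seen. Bmp7, Inhbb, Fst, Sostdc1, Ltbp3 and Ski were below the total in all 14 pairs, 6 of the 46 genes (13%), against 69 of all 17493 genes (0.394%). No gene of the 46 was above the total in all 14 pairs (0.0743% of all genes were), and Bmp3 was above it in 13. Without the pair of the library with few genes, the same count over 13 pairs was 6 of 46, against 0.537% of all genes. The steps differed in size between the 6 genes. Fst, Sostdc1 and Inhbb are given above, and Bmp7 had 80.1 and 75.8 CPM in tail Slc1a3+ cells and 96.5 and 92.4 CPM in their total, and 33.8, 35 and 27.8 CPM in back Slc1a3+ cells and 46, 46 and 38.1 CPM in their total. The labels do not state whether a total included the labelled cells.

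Of the 8 markers of the follicle bulge and germ, 2 were lower in tail Slc1a3+ cells by the test and 0 passed in the other 5 comparisons with a total. The 8 markers, none at 0 in any group, summed to 166 to 222 CPM in tail Slc1a3+ cells and 905 to 931 CPM in their total, 490 to 644 and 801 to 899 CPM in tail Aspm+ cells and their total, and 915 to 977 and 1660 to 1680 CPM in tail Dlx1+ cells and their total. On the back the sums were 126 to 400 and 331 to 489 CPM in Slc1a3+ cells and their total, 243 to 586 and 337 to 704 CPM in Aspm+ cells and their total, and 183 to 226 and 308 to 340 CPM in K14+ cells and their total. On the back the sums of Slc1a3+ and of Aspm+ cells overlapped those of their totals. Postn made up most of these sums, at 118 and 161 CPM in tail Slc1a3+ cells and 785 and 755 CPM in their total. Pair by pair, Postn, Sox9 and Lhx2 lay below the total of the same number in every pair of both sites. Sox9 had 16.3, 7.18 and 5.84 CPM in back Slc1a3+ cells and 23, 21.9 and 14.3 CPM in their total. Cd34, Lgr5, Fgf18 and Tbx1 each lay above the total in some back pair. Nfatc1 did so only in back Slc1a3 replicate 4 (30.3 against 11.1 CPM), whose total is the library with few genes. The part of follicle cells in the lower Fst, Sostdc1, Inhbb and Grem1 was not tested. Of the further pathway genes only Ltbp1, a latent TGF-beta binding protein, passed: it was lower in tail Slc1a3+ cells (mean 5.74 against 19.1 CPM in the total, log2 change -1.74, adjusted p = 0.00728), back Slc1a3+ cells (-2.45, adjusted p = 9.90e-05) and back K14+ cells (-3.45, adjusted p = 1.61e-04).

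Whether the change from total to labelled cells differed between sites was tested for the Slc1a3 and Aspm lines. No gene of the 46 passed in either, by edgeR, with 4 and 3 at an unadjusted p under 0.05 (4.32% and 2% of all genes), and 1 passed in each by DESeq2's test. Of all genes 0.0915% and 0% passed. With pairing Fst (-2.40, adjusted p = 0.00224) and Bmpr1b (-3.94, adjusted p = 0.0114) passed for the Slc1a3 line, whose pairing on the back is uncertain. Fst lay below the total at both sites, and further in the tail. Bmpr1b lay below it in the tail, at 0 and 0.237 CPM against 0.62 and 2.2 CPM, and above it in each back pair, at 17.1, 7.46 and 5.03 CPM against 16.2, 5.94 and 2.94 CPM.

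Labelled cells of different lines were compared within each site. In the tail, Slc1a3+ cells differed from Dlx1+ cells in 8 of the 46 genes (17.4%), against 5.47% of all genes. Bmp3 (log2 change 1.77, adjusted p = 0.0202) and Bmp4 (1.01, adjusted p = 0.0414) were higher in Slc1a3+ cells. Inhbb (-1.87), Tgfbr2 (-0.57), Bmpr1b (-3.95), Fst (-3.86), Sostdc1 (-1.69) and Skil (-0.91) were lower, with adjusted p between 5.07e-04 and 0.0498. Bmp4 had 22 and 16.9 CPM in Slc1a3+ cells and 5.45 and 13.6 CPM in Dlx1+ cells, Inhbb 5.18 and 7.06 against 22.7 and 22 CPM, and Sostdc1 79.6 and 68.7 against 230 and 249 CPM. Groups did not overlap for any of the 8, but the same 4 libraries picked these genes, so this adds no support. The count fell to between 2 and 5 when any of the 4 libraries was left out, and among the 8 calls that of Fst alone held under all 10 alternatives.

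Tail Slc1a3+ cells differed from Aspm+ cells in 3 genes (6.52%, against 0.492% of all genes). Fst had 1.05 and 0.653 CPM in Slc1a3+ cells and 8.5 and 8.21 CPM in Aspm+ cells (-3.29, adjusted p = 0.00567), and Tgfa averaged 3.09 and 10.6 CPM (-1.77, adjusted p = 0.0438). Grem1 was at least 11.7-fold higher in Slc1a3+ cells, against 0 counts in Aspm+ cells (adjusted p = 0.00943). The count was 0 without Slc1a3+ replicate 2 and 1 without any other of the 4 libraries. Tail Aspm+ and Dlx1+ cells differed in 0 of the 46 genes by edgeR, with 5 at an unadjusted p under 0.05 (5.62% of all genes) and 2 by DESeq2's test, where 0.0915% of all genes passed.

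On the back, Slc1a3+ and Aspm+ cells differed in Sostdc1 alone by edgeR (2.17% of the 46, against 0.16% of all genes). It had 78.8, 27.8 and 30.3 CPM in Slc1a3+ cells and 175, 129 and 144 CPM in Aspm+ cells (-1.71, SE 0.270, adjusted p = 0.00466), without overlap. The totals of the lines gave 0 calls among the 46 in each of 4 comparisons by edgeR (0.0114%, 0.00572%, 1.92% and 0.0343% of all genes passed). At an unadjusted p under 0.05 the counts were 11 for Slc1a3 against Aspm on the back and 4, 5 and 3 for Slc1a3 against Aspm, Slc1a3 against Dlx1 and Aspm against Dlx1 in the tail, where 14.8%, 9%, 17.8% and 3.86% of all genes did so, and DESeq2's test called 3, 1, 1 and 0. Of the further pathway genes, Ltbp1 was lower in Slc1a3+ than in Aspm+ cells on the back (-2.46), and in Slc1a3+ than in Dlx1+ cells in the tail (-1.33), where Lefty1 was higher (0.88). Driver and mouse line cannot be told apart in these comparisons.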

How the data were processed

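RNA-seq counts per gene were deposited by the authors for 28 libraries. Per the labels' protocols, RNA was made into libraries with poly(A) selection and a non-directional kit. The submitters' processing notes name Trim Galore 0.6.0, cutadapt, FastQC, STAR 2.7.0e and DESeq2 1.26.0, with build GRCm38/mm10; the counting program is not given in the sources used here. All 55536 identifiers matched GENCODE M21, which gave symbols and exon lengths.

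Counts were fitted with edgeR 4.0.16 in R 4.3.3 (glmQLFit, robust, TMM, 1 mean per group over 12 groups, filterByExpr with a minimum count of 10). P-values were Benjamini-Hochberg adjusted over 17493 genes, with a threshold of 0.05. The steps were tested on simulated counts. Alternatives were DESeq2 1.42.0, its size factors, no filter, the compared groups alone, a replicate block and leaving out each library. A gene at 0 counts was set to a floor of 3 counts per library. Libraries of the same line, site and number correlated in their deviations (r 0.18 to 0.689 over 14 pairs, all above 0.1), which was taken as pairing; the labels give only the number. Pairs of other lines reached 0.343 and of the other site 0.379. The 3 back Slc1a3 pairs (0.18 to 0.216), the back K14 pairs (0.362) and the tail Aspm pairs (0.321) therefore do not stand apart. In groups of 2 both pairs give the same r.

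The genes, lists and tests were chosen with earlier results of these data known. Every gene of the 50 called in a comparison is named, and others by role; 1 gene of the further pathway list is not reported here.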

Additional observations from a re-analysis of the deposited data

How the results depend on the processing

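None of the 105 calls among the 46 genes reversed direction under the alternatives run; uncalled values and further pathway genes were not rerun. The counts for tail over back skin stayed within 1.5 times of 37, 28 and 23 under every alternative that kept all libraries. Leaving out 1 library gave 29 to 39 in totals, 25 to 30 in Slc1a3+ cells and 13 to 29 in Aspm+ cells, and 11 to 22 genes called the same way in all 3 gates, a check added after seeing the data. Of the calls, 28 of 37 held under all 15 alternatives in totals, 23 of 28 under 11 in Slc1a3+ cells and 12 of 23 under 11 in Aspm+ cells.

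The small counts moved more, and the cause was not tested. Without the low-count filter, labelled over total gave 3 in back Slc1a3+, 1 in back Aspm+, 2 in back K14+, 7 in tail Slc1a3+ and 3 in tail Dlx1+ cells, and the differences between sites 2 for the Slc1a3 and 1 for the Aspm line. It gave 5 for back Slc1a3+ over Aspm+, 6 for tail Slc1a3+ over Aspm+, 2 for tail Aspm+ over Dlx1+, and in totals 6 for back Slc1a3 over Aspm, 1 for tail Slc1a3 over Dlx1 and 1 for tail Aspm over Dlx1. DESeq2's test gave 2, 1, 2, 7 and 1 for those 5 labelled groups, 1 and 1 for the differences between sites, 3, 7 and 2 between labelled cells, and 3, 1 and 1 for the totals of back Slc1a3 over Aspm, tail Slc1a3 over Aspm and tail Slc1a3 over Dlx1. With the replicate block the counts were 2 in back Slc1a3+, 2 in back K14+, 8 in tail Slc1a3+ and 3 in tail Dlx1+ cells, and 2 for the difference between sites of the Slc1a3 line. Between lines, where numbers do not pair libraries, a block by number gave 2 for back Slc1a3+ over Aspm+, 5 for tail Slc1a3+ over Aspm+ and 1 for tail Aspm+ over Dlx1+. Fits of the compared groups alone gave 0 in back Slc1a3+ and 2 in back K14+ cells, 0, 6 and 1 for those 3 comparisons, and 2 and 2 for tail totals of Slc1a3 and of Aspm over Dlx1.

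Leaving out 1 library gave 0 to 2 in back Slc1a3+, 1 to 5 in tail Slc1a3+, 0 to 1 in tail Aspm+ and 0 to 1 in tail Dlx1+ cells, 0 to 0 in back Aspm+ and back K14+ cells, and 0 to 0 and 0 to 1 for the differences between sites of the Slc1a3 and Aspm lines. It gave 1 to 2 for back Slc1a3+ over Aspm+, 0 to 5 for tail Slc1a3+ over Aspm+, 2 to 10 for tail Slc1a3+ over Dlx1+, 0 to 1 for tail Aspm+ over Dlx1+ and 0 to 0 for the totals. Groups of 2 or 3 libraries limit these tests, and changes of genes under a few CPM rest on few reads.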
